A study of Mus musculus with 12 samples.

Results

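The cytosolic ribosomal protein genes were taken as the protein-coding genes whose mouse symbol starts with Rpl or Rps followed by a digit, together with Rpsa, Rplp0, Rplp1 and Rplp2, without pseudogenes, S6 kinases and binding proteins. The rule found 85 genes among the 55487 of the count table, 52 of the large subunit and 33 of the small subunit. Their RNA was counted by sequencing in SCC7, a squamous carcinoma cell line of the mouse that is labelled wild type, after 24 h in medium conditioned by bone-marrow-derived macrophages (BMDM). The macrophages had been kept for 24 h in control DMEM (M0 CM), in 20 ng/ml interferon-gamma (M1 CM), in 20 ng/ml interleukin-4 (M2 CM) or in 75% SCC7 conditioned medium (TAM CM). Each medium had 3 libraries, 12 in all, and all values are RNA levels in the SCC7 cells. No library of SCC7 cells kept away from macrophage medium was used here, so M0 CM is the reference throughout. The labels leave unsaid whether cytokine or SCC7 medium was washed off the macrophages before their medium was taken.

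Each ribosome is built from ribosomal RNAs and a single set of these proteins, which have to be made in matching amounts. Most of their mRNAs begin with a run of pyrimidines, the 5′ terminal oligopyrimidine (TOP) motif, through which the kinase complex mTORC1 and the protein LARP1 control translation. Cells regulate these genes largely at that step, so RNA levels give only a part of ribosomal protein output. A few members have paralogs that can take their place, and most have processed pseudogenes in the genome that are near copies of their mRNA.

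Library totals ran from 18996937 to 22596630 counts, and levels are given as CPM, counts scaled to a fixed library total with TMM-scaled library sizes. A gene was called when edgeR's quasi-likelihood test gave a Benjamini-Hochberg adjusted p under 0.05 over all 14509 genes tested. Of the 85 members, 81 passed the filter on low counts, which asks for about 10 counts in at least 3 libraries. Whether libraries of 1 medium are separate cultures is unsaid in the labels, and p-values therefore rest on the spread between samples alone, which may be technical. In bulk RNA, fewer cells of a type and less RNA per cell cannot be told apart. The label of M2 CM replicate 3 names a melanoma cell, where the other 11 name squamous carcinoma, and the library was kept. The summed level of 8 melanocyte markers was 5.56 to 7.33 CPM over the M2 CM libraries, 7.21 to 9.30 in M0 CM, 9.80 to 13.0 in M1 CM and 11 to 12.8 in TAM CM, with 1 of the 8 past the filter and 2 at 0. Summed levels of 12 macrophage markers were 22.8 to 24.0 CPM in M0 CM, 33.7 to 39.8 in M1 CM, 22.5 to 25 with M2 CM and 41.0 to 50.4 in TAM CM, with 2 of the 12 at 0 and 4 past the filter. Of 10 squamous epithelial markers 5 passed the filter and 1 was at 0. The sum of all 10 was 91.0 to 101 CPM in TAM CM, 167 to 171 in M1 CM, 360 to 391 in M0 CM and 679 to 758 in M2 CM. The sum of 8 fibroblast markers, 6 past the filter and 2 at 0, stood highest in M0 CM, at 2660 to 2810 CPM, against 2100 to 2150 in M1 CM, 1810 to 1820 with M2 CM and 1900 to 2010 in TAM CM. The part of these markers in the results below was not tested.

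The start regions of 8 members are shown as examples. Rpl12, Rpl35, Rpl4 and Rpl15 had large called changes in TAM CM, and other members with large changes there, such as Rpl26 and Rpl34, are not shown. Rpl7l1, Rpl22l1 and Rps27l are paralogs described below, and Rps27 is the partner of Rps27l. Sequences and starts are those of RefSeq on GRCm38.p6, from 60 bases before to 20 bases from the start, 5′ to 3′ on the gene's strand. Capitals mark matches within 50 bases of the start to the pyrimidine word CTTTCC, to the related word CTTTTC or to a further word, CTCTTT, which are of the kind found in TOP starts and can overlap each other. The windows are chr2:32961652-32961731 on the plus strand for Rpl12, chr2:39005112-39005191 on the minus strand for Rpl35, chr9:64173327-64173406 on the plus strand for Rpl4 and chr14:18270967-18271046 on the minus strand for Rpl15. For the paralogs and Rps27 they are chr17:46782637-46782716 on the minus strand for Rpl7l1, chr3:28805448-28805527 on the plus strand for Rpl22l1, chr3:90213629-90213708 on the minus strand for Rps27 and chr9:66946026-66946105 on the plus strand for Rps27l.
Rpl12: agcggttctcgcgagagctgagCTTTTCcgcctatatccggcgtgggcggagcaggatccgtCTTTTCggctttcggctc
Rpl35: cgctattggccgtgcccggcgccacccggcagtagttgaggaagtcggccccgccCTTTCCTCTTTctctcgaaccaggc
Rpl4: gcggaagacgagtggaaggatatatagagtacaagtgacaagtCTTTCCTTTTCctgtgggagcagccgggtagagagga
Rpl15: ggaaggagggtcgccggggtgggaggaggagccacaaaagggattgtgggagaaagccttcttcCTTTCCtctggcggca
Rpl7l1: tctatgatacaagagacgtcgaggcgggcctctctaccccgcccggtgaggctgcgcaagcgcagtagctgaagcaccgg
Rpl22l1: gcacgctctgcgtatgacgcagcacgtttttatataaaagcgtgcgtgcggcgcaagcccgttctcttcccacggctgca
Rps27: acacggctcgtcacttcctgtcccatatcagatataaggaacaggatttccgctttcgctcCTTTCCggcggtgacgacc
Rps27l: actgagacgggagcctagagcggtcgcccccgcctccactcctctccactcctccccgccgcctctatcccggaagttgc

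Rpl12, Rpl35, Rpl4, Rpl15 and Rps27 held at least 1 match, and the paralogs Rpl7l1, Rpl22l1 and Rps27l held none in the bases shown. The match of Rpl4 and the first match of Rpl12 lie before the RefSeq start, outside the RefSeq transcript. Rpl22l1 lacked the 3 words but held the run ttctcttccc beside its RefSeq start, which meets the length of 10 pyrimidines used below. RefSeq and GENCODE starts can differ, for Rpl12 32961712 and 32961559, for Rpl35 39005131 and 39005624 and for Rpl15 18270986 and 18271391. All matches are placed by the RefSeq start. RefSeq start regions were matched by symbol for 65 of the 85 members. At least 1 of the 3 words lay on the gene's strand within 50 bases of the start in 37 of the 65 (56.9%), beside 12.6% of 27025 genes with an entry. On the other strand the shares were 7.69% of members and 11.8% of all genes. A run of at least 10 pyrimidines stood in that window in 67.7% of members and 20.6% of all genes. The word CCGGAAG, searched on both strands from 250 bases before to 50 after the start, was found in 40.0% of members and 9.93% of all genes, AAGATGG in 15.4% and 7.28%, and TATAAA in 10.8% and 15.7%. Tested members with a pyrimidine word (36) and without one (25) had median log2 fold changes from M0 CM of 0.24 and 0.24 for M1 CM, 0.14 and 0.14 for M2 CM, and 0.25 and 0.19 for TAM CM, given as a description.

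Together the members took more of the library in each of the other 3 media than in M0 CM. Their share of all counts was 4.28%, 4.22% and 4.29% in the M0 CM libraries. It was 4.78%, 5.0% and 4.61% in M1 CM, 4.57%, 4.62% and 4.36% with M2 CM, and 4.72%, 4.60% and 4.60% in TAM CM. The 3 M0 CM libraries were the lowest of the 12, and the ranges of the other media overlapped each other. As mean ± SD of n = 3 the shares were 4.26 ± 0.0385%, 4.80 ± 0.196%, 4.52 ± 0.135% and 4.64 ± 0.0648%, a summed value given without a test. The near-copy pseudogenes of the members, 979 genes of which 654 had counts, added 0.878 ± 0.00729% in M0 CM and 1.04 ± 0.0280% in TAM CM.

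**Figure D1:**
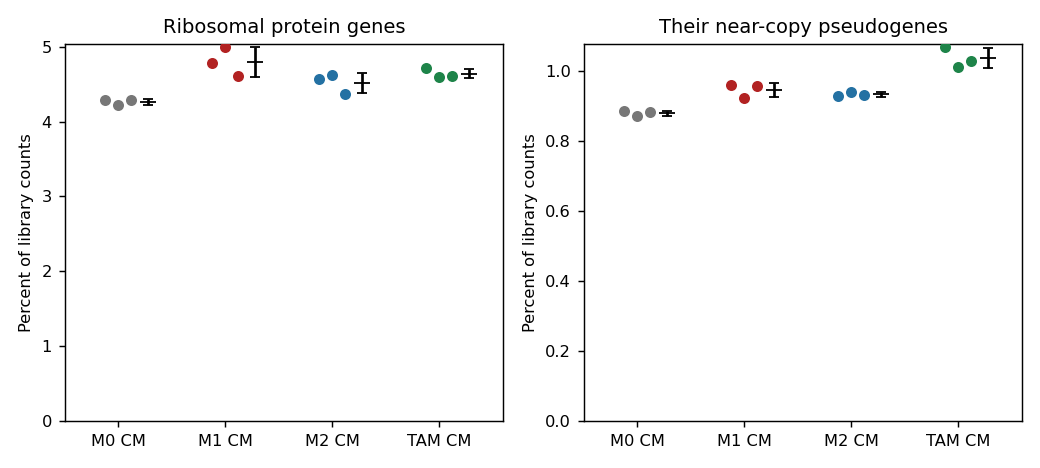
Percent of library counts (vertical axes) in the 85 ribosomal protein genes (left) and in their near-copy pseudogenes (right), by medium. Points are libraries and the bar beside them is the mean ± SD of n = 3; the members' share lay between 4.22% and 4.29% in M0 CM and at 4.36% or more in each of the other 9 libraries.

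M1 CM replicate 2 and M2 CM replicate 3 had the largest median deviations within their groups over the members. In M1 CM replicate 2 the median member was 0.11 (log2) above the mean of the other 2 libraries, with 67 of 81 members above. That median was 0.20 over 32 members with a transcript under 600 bases and 0.09 over 24 of at least 900 bases. In M2 CM replicate 3 the median was -0.10, with 7 of 81 members above, at -0.13 over the short and -0.07 over the long transcripts. M1 CM replicate 3 was nearly as far off, at -0.09 with 11 of 81 above, and at -0.17 and -0.07 by length. Whether transcript length has a part in this was not tested. Counts of called members are also given without M1 CM replicate 2 or M2 CM replicate 3 where these enter, except for TAM CM against M2 CM. Values of several affected genes are also given without M1 CM replicate 2.

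Most members were a little higher in the medium of interferon-gamma-treated macrophages. The comparisons of M1, M2 and TAM CM with M0 CM share the M0 CM libraries, so their values are given side by side. Of 81 tested members 69 were higher in M1 CM than in M0 CM and 2 were lower, beside 27.7% of all genes higher and 25.6% lower. The median member had a log2 fold change of 0.25, where the median of all genes was 0.01, and 42 of 48 large-subunit and 27 of 33 small-subunit members were higher. Without M1 CM replicate 2 the counts were 65 higher and 1 lower. With library sizes alone as the scaling they were 54 and 2, and all genes then split into 3219 higher and 4626 lower, in place of 4023 and 3719.

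The largest rises in M1 CM that held under leaving out each library were in Rpl26, Rpl3 and Rps28. Rpl3, a core protein beside the peptidyl transferase centre, was at 592, 595 and 605 CPM in M0 CM and 872, 924 and 848 CPM in M1 CM. The groups were far apart, with a log2 fold change of 0.56 (SE 0.03, edgeR adjusted p = 5.12e-20). Rpl26, a protein at the exit tunnel, went from 62.2, 59.4 and 65.5 CPM to 89.9, 114 and 82.8 CPM (log2 0.61, SE 0.12, adjusted p = 0.00176). Rps28, near the mRNA exit of the small subunit, went from 263, 254 and 260 CPM to 354, 450 and 319 CPM (log2 0.53, SE 0.12, adjusted p = 0.00544). In Rpl26 and Rps28, M1 CM replicate 2 was the highest library, and without it the log2 fold changes were 0.47 and 0.38, both still called.

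Rpl23a and Rpl22l1 had larger estimates, with M1 CM replicate 2 far above the other libraries. Rpl23a, a docking site for nascent-chain factors, was at 18.0, 16.4 and 15.4 CPM in M0 CM and 25.3, 47.1 and 21.0 CPM in M1 CM, a log2 fold change of 0.91 (SE 0.30, adjusted p = 0.0329). Without M1 CM replicate 2 it was 0.48 (adjusted p = 0.0246), and without M0 CM replicate 1, 2 or 3 the call was lost (adjusted p = 0.0645, 0.0814 and 0.0905). Rpl22l1, the paralog of Rpl22, was at 26.1, 27.9 and 30.3 CPM in M0 CM and 40.9, 63.0 and 35.7 CPM in M1 CM (log2 0.73, SE 0.21, adjusted p = 0.0161). Its value without M1 CM replicate 2 was 0.46 (adjusted p = 7.69e-05), and the call was lost without M0 CM replicate 1 (adjusted p = 0.0564). Rpl35, also at the exit tunnel, had a log2 fold change of 0.46, and 0.29 without M1 CM replicate 2, and was called both times. In a fit of only the 2 groups Rpl22l1 and Rpl35 were not called (adjusted p = 0.0815 and 0.0783).

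The 2 members lower in M1 CM were both paralogs. Rps27l, known as a p53 target, went from 137, 142 and 140 CPM to 111, 112 and 108 CPM, a log2 fold change of -0.34 (SE 0.04, adjusted p = 9.58e-11). Rpl7l1, known from precursors of the large subunit, went from 193, 195 and 195 CPM to 186, 169 and 181 CPM (log2 -0.12, SE 0.04, adjusted p = 0.00395). The groups did not overlap for either gene. Without M1 CM replicate 2 the value of Rpl7l1 was -0.08 and was no longer called (adjusted p = 0.0624).

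**Figure D2:**
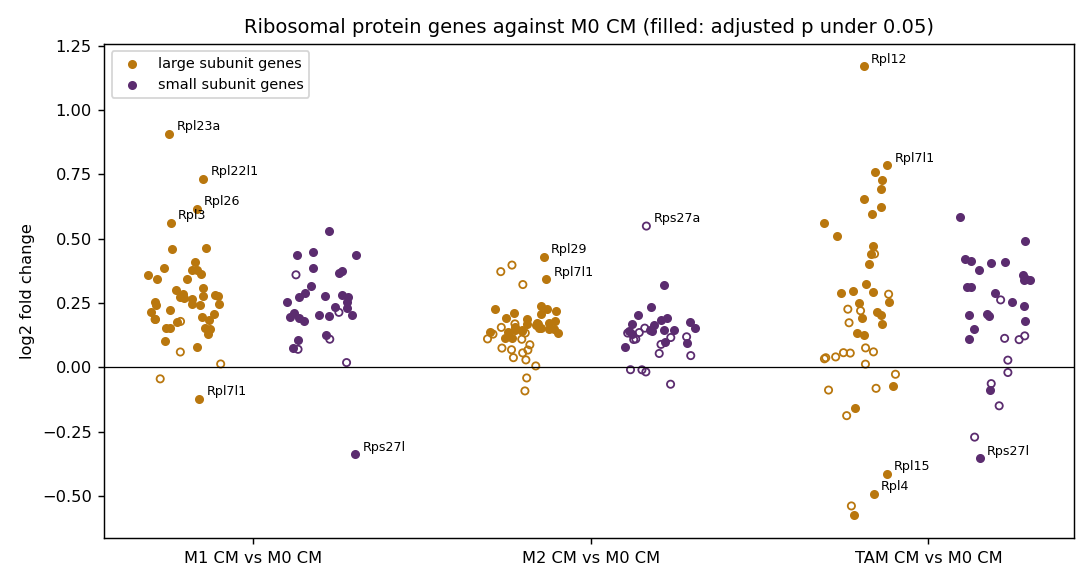
log2 fold change (vertical axis) of the 81 tested members in M1 CM, M2 CM and TAM CM against M0 CM, which the 3 comparisons share. Each point is a gene, large-subunit genes to the left and small-subunit genes to the right of each label, filled where the edgeR adjusted p was under 0.05; values ran from -0.34 to 0.91 in M1 CM, -0.09 to 0.55 with M2 CM and up to 1.17 in TAM CM.

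Medium of interleukin-4-treated macrophages went with smaller changes, all called ones upward. In M2 CM 46 of 81 members were higher than in M0 CM and 0 were lower, beside 21.0% of all genes higher and 18.5% lower. By DESeq2 the counts were also 46 and 0. The median member was at a log2 fold change of 0.14 (all genes -0.003), and no called member reached 1.5-fold. Without M2 CM replicate 3 the count was 49, without M2 CM replicate 2 it was 34, and with library sizes alone 32, with all genes then at 2203 higher and 3651 lower in place of 3042 and 2681.

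Rpl7l1 led the rises that held in every library left out. It went from 193, 195 and 195 CPM in M0 CM to 245, 253 and 241 CPM in M2 CM (log2 0.34, SE 0.04, adjusted p = 3.88e-11). Rpl8, a core protein of the large subunit, rose from 2127, 2085 and 2171 CPM to 2441, 2564 and 2470 CPM (log2 0.23, SE 0.03, adjusted p = 5.02e-09). Rps27l, lower in M1 CM, was higher here, at 163, 168 and 152 CPM (log2 0.20, SE 0.04, adjusted p = 1.02e-05). For these 3 genes every M2 CM library was above every M0 CM library. Rpl34, a large-subunit protein, and Rps2, a protein at the mRNA entry, had log2 fold changes of 0.24 and 0.23. Rpl29 had the largest called value, 0.43 (SE 0.13, adjusted p = 0.00699), at 5.17 to 7.70 CPM in M0 CM and 7.94 to 9.53 CPM in M2 CM. It was not called without M0 CM replicate 2 (0.29, adjusted p = 0.0984) or without M2 CM replicate 2 (0.36, adjusted p = 0.0531). Rps10, of the small subunit's head, was at 0.32 and lost its call without the same libraries, at 0.28 and 0.25 (adjusted p = 0.0612 and 0.0982).

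In TAM CM members moved in both directions. Of 81 tested members 47 were higher than in M0 CM and 7 were lower, beside 35.1% of all genes higher and 34.9% lower, and the median was 0.22 (all genes 0.00). The log2 fold changes had an SD of 0.30 over the members, beside 0.17 in M1 CM and 0.10 in M2 CM. The quartiles of all genes were also wider apart in TAM CM, at -0.47 and 0.44, than in M1 CM, at -0.22 and 0.28, and M2 CM, at -0.21 and 0.16. A called rise of at least 1.5-fold was seen in 8 members. The share of all genes that rose as far was not counted, so the 8 are given as a description. With library sizes alone 38 members were higher and 12 lower.

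Rpl12 gave the largest change of any member in any comparison with M0 CM. This gene of the stalk base, where translation factors bind, lies on chromosome 2 from 32961559 to 32965345 (ENSMUSG00000038900, GRCm38). It was at 563, 554 and 534 CPM in M0 CM, 650, 673 and 635 CPM in M1 CM, 590, 621 and 597 CPM with M2 CM, and 1241, 1240 and 1231 CPM in TAM CM. All TAM CM libraries were well above the other 9, with a 2.25-fold rise from M0 CM (log2 1.17, SE 0.03, adjusted p = 2.91e-35). The log2 difference of TAM CM was 0.92 from M1 CM (adjusted p = 5.95e-31) and 1.04 from M2 CM (adjusted p = 4.42e-33).

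The other 7 members that rose by at least 1.5-fold in TAM CM were all of the large subunit. Of the 8 with Rpl12, 7 held under 95% of the counts of the gene and its near-copy pseudogenes together, as set out below. Rpl35 was at 83.4, 80.9 and 81.8 CPM in M0 CM and 136, 148 and 132 CPM in TAM CM (log2 0.76, SE 0.13, adjusted p = 0.00063). Rpl34 was at 281, 288 and 292 CPM in M0 CM and 480, 464 and 449 CPM in TAM CM (log2 0.69, SE 0.05, adjusted p = 1.4e-08). Rpl34 was higher in the 3 TAM CM libraries than in all other 9. Rpl35 was so too but for M1 CM replicate 2, at 139 CPM. Rpl26 rose by 0.73, Rpl37 by 0.65, Rpl23, at the face between the subunits, by 0.62, and Rpl9 by 0.60 on the log2 scale, and Rpl7l1 reached 350, 319 and 336 CPM, a rise of 0.79 (SE 0.04, adjusted p = 3.52e-25). Among small-subunit genes Rps24, a gene of Diamond-Blackfan anaemia, rose most, from 632, 646 and 633 CPM to 975, 928 and 961 CPM (log2 0.58, SE 0.04, adjusted p = 5.6e-15).

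Among the 7 members that fell in TAM CM were Rpl4, Rpl15, Rps27l, Rpl14, Rpsa and Rpl11. Rpl4, whose loop lines the exit tunnel, was at 1884, 1843 and 1872 CPM in M0 CM, 2182, 2261 and 2089 in M1 CM, 2105, 2168 and 2077 with M2 CM, and 1369, 1270 and 1345 in TAM CM. It was thus above M0 CM in the M1 and M2 media and below it in TAM CM, where the log2 fold change was -0.49 (SE 0.03, adjusted p = 5.52e-20). Rpl15, a core protein of the large subunit, was at 392, 403 and 405 CPM in M0 CM and 306, 287 and 309 CPM in TAM CM (log2 -0.41, SE 0.06, adjusted p = 0.000165). For both genes the TAM CM libraries were the lowest of the 12. Rps27l was at 113, 110 and 106 CPM, again below M0 CM (log2 -0.35, SE 0.04, adjusted p = 1.29e-11). Rpl14 had -0.16, Rpsa, also known as the laminin receptor precursor, -0.09 and Rpl11 -0.07. The call of Rpl11 was lost without M0 CM replicate 1 or 3 and without TAM CM replicate 2 or 3 (adjusted p = 0.0681, 0.094, 0.136 and 0.095). Rpl22l1, at 18.9, 21.3 and 17.5 CPM, lay below M0 CM in all libraries with a value of -0.54 that was not called (adjusted p = 0.0674), and DESeq2 called it (adjusted p = 0.0153).

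**Figure D3:**
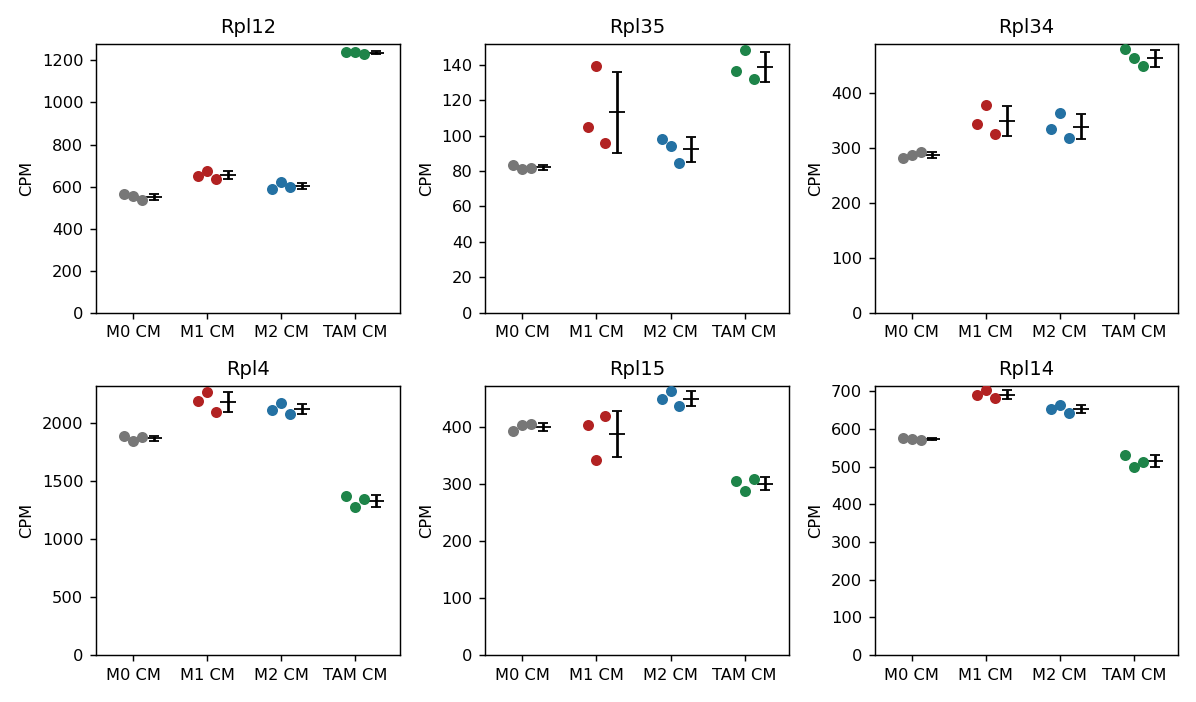
CPM (vertical axes, from 0) of 6 members in each library by medium; the bar beside the points is the mean ± SD of n = 3. Rpl12 stood at 1231 to 1241 CPM in TAM CM and at 673 CPM or less elsewhere, while Rpl4 and Rpl15 had their 3 lowest libraries in TAM CM, and Rpl14 stood at 499 to 531 CPM there and 569 CPM or more elsewhere.

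By role, the genes of the stalk differed in the size of their change in TAM CM. Rplp0, the stalk's anchor, was at 2455 ± 41.5 CPM in M0 CM and 3019 ± 64.5 CPM in TAM CM (log2 0.30, adjusted p = 4.55e-13), Rplp2 had 0.22 (adjusted p = 2.07e-06) and Rplp1 0.06, which was not called (adjusted p = 0.382), beside the 1.17 of Rpl12. All 4 were higher in M1 CM, at 0.15 to 0.25. Of the 9 exit tunnel proteins, 9 were higher in M1 CM, 2 were in M2 CM and 4 were in TAM CM, where Rpl4 was lower. All genes were called higher in 27.7%, 21.0% and 35.1% of cases in these media, so the tunnel counts in M2 CM and TAM CM lie near the background. The values of the tunnel genes in TAM CM ran from -0.49 for Rpl4 to 0.76 for Rpl35. Rpl5 and Rpl11, which carry the 5S RNA into the ribosome and bind the p53 regulator MDM2, were both higher in M1 CM (0.20 and 0.13) and M2 CM (0.15 and 0.17). In TAM CM Rpl5 was higher (0.17, adjusted p = 3.52e-06) and Rpl11 lower. Rps6, the S6 kinase substrate, rose in the M1 and M2 media by 0.20 and 0.17, and by 0.11 in TAM CM (adjusted p = 0.0103), a call lost without M0 CM replicate 3 or TAM CM replicate 1 (adjusted p = 0.0802 and 0.0865). Of 19 tested genes mutated in Diamond-Blackfan anaemia, a failure of red cell formation, 17 were higher in M1 CM, 10 with M2 CM and 11 in TAM CM, where Rpl11 and Rpl15 were lower, beside the same shares of all genes and 34.9% lower in TAM CM.

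Rps27a, which encodes a fusion of ubiquitin and a ribosomal protein, was not called in any of the 6 comparisons. It was at 225, 293 and 199 CPM in M0 CM, 429, 277 and 210 CPM in M1 CM, 375, 428 and 244 CPM with M2 CM, and 393, 246 and 221 CPM in TAM CM. All 4 groups overlapped, and the SE of its log2 fold change from M0 CM to M2 CM, 0.55, was 0.34 (adjusted p = 0.258).

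Paralog and partner were compared as the paralog's percent of the counts of both, which does not depend on the scaling. Rpl7l1 held 15.9%, 16.3% and 16.1% of the counts it shares with Rpl7 in M0 CM, 14.2%, 12.7% and 14.2% in M1 CM, 17.5%, 17.7% and 18.9% with M2 CM, and 25.1%, 23.9% and 24.0% in TAM CM. None of the 4 groups overlapped, and Rpl7 itself was not called in TAM CM (log2 0.04, adjusted p = 0.331). Rps27l held 39.3 ± 0.981% with Rps27 in M0 CM, 30.1 ± 1.75% in M1 CM, 42.9 ± 0.539% with M2 CM and 34.6 ± 0.794% in TAM CM (SD, n = 3), again with no overlap. Rpl22l1 held 8.84 ± 0.484%, 11.6 ± 1.85%, 8.28 ± 0.550% and 7.03 ± 0.482% of the counts it shares with Rpl22, in the same order of media. In M1 CM its libraries were at 11.1%, 13.7% and 10.1%, with M1 CM replicate 2 the highest, and M0 CM and M2 CM overlapped (p = 0.2 by the exact permutation test). Exact two-sided permutation tests over 4 pairs and 6 comparisons, 24 in all, gave p = 0.1 for each pair of groups that did not overlap, the smallest 3 against 3 allows, and 0.141 after adjustment. Rpl36al held mean shares of 0.582% to 0.737% of its pair with Rpl36a, and its groups overlapped in all 6 comparisons.

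**Figure D4:**
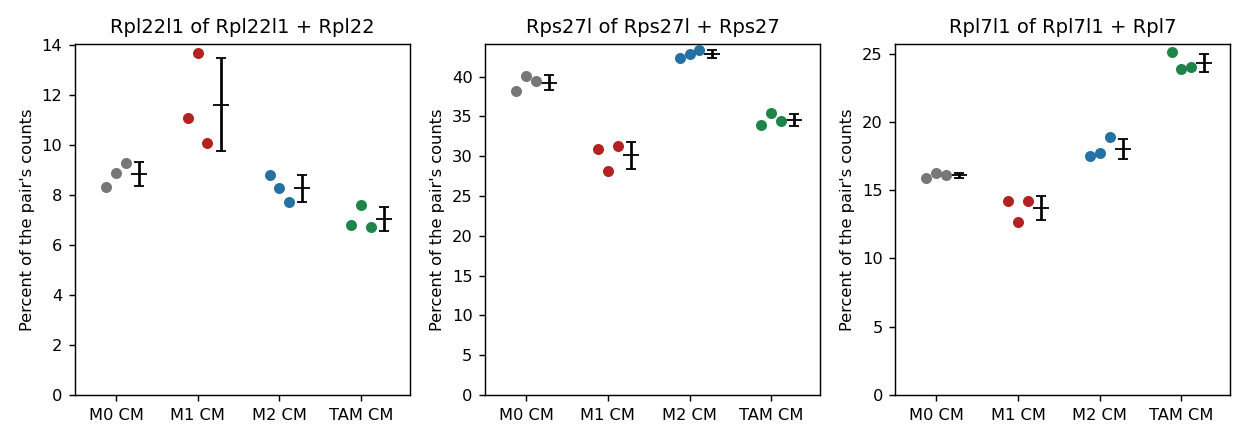
Percent of the counts of a paralog pair (vertical axes, from 0) that fall on the paralog, for Rpl22l1, Rps27l and Rpl7l1, in each library by medium, with the mean ± SD of n = 3. Rpl7l1 was highest in TAM CM, at 23.9% to 25.1%, and Rps27l lowest in M1 CM, at 28.1% to 31.3%.

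Counts of many members cannot be separated from those of their pseudogenes, since how the authors counted reads that match several places is not known from the labels. A near copy was a pseudogene transcript of at least 90% identity over at least 80% of the member's coding sequence. The member held at least 95% of its family's counts in 39 families, among them Rpl4 (99.96%), Rpl7l1 (99.9%), Rps27l (99.78%) and Rpl8, and under 50% in 10. Rps10 held 2.82%, Rps2 4.56%, Rpl23a 7.56%, Rpl29 9.84% and Rpl26 11.1%, so their levels above are those of a small part of the family and are uncertain. Rpl3 held 43.2%, with 233621 counts on the pseudogene Rpl3-ps1, and is uncertain too. Of the 8 members that rose by at least 1.5-fold in TAM CM, only Rpl7l1 held at least 95%. The other 7 ran from 11.1% for Rpl26 to 92.63% for Rpl35, with Rpl9 at 61.85%, Rpl34 at 73.72% and Rpl12 at 80.6%. Their levels are thus not fully separated from those of their near copies. For Rps2 a single pseudogene, Rps2-ps10, took 349538 counts, and for Rpl26 Gm15772 took 167509, beside 17998 and 21082 on the members. Rpl29 (12.7 CPM per kilobase of transcript), Rps10 (23.2) and Rpl36al (3.03) were the lowest tested members by length, and Rpl41 (2922), Rpl8 (2917) and Rps15 (2020) the highest.

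Near copies were also called in TAM CM, in the direction of their member where both were called. Over 46 families whose copies reached 20 CPM, the summed copies were higher than in M0 CM in 29 and lower in 3, and 28 families had the same call as the member, with 0 opposite. Pearson's r between the log2 fold changes of members and copies was 0.91 in TAM CM, 0.29 in M1 CM and 0.28 in M2 CM, a description across families that share libraries and may share reads. The copies of Rpl12 went from 141 to 281 CPM (means of n = 3) in TAM CM (log2 0.99, adjusted p = 2.33e-07). Those of Rpl15 had -0.44, of Rpl34 0.87 and of Rpl26 0.78, beside -0.41, 0.69 and 0.73 for the members. In M1 CM the copies of Rpl23a were at 0.09 and not called (adjusted p = 0.499), and those of Rpl26 at 0.21 (adjusted p = 5.05e-05), beside 0.91 and 0.61 for the members, while the copies of Rpl3 and Rps28 had 0.57 and 0.57. With each member joined to its copies before the fit, an alternative chosen after the data had been seen, 71 members were higher and 2 lower in M1 CM, 53 and 0 with M2 CM, and 52 and 6 in TAM CM.

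**Figure D5:**
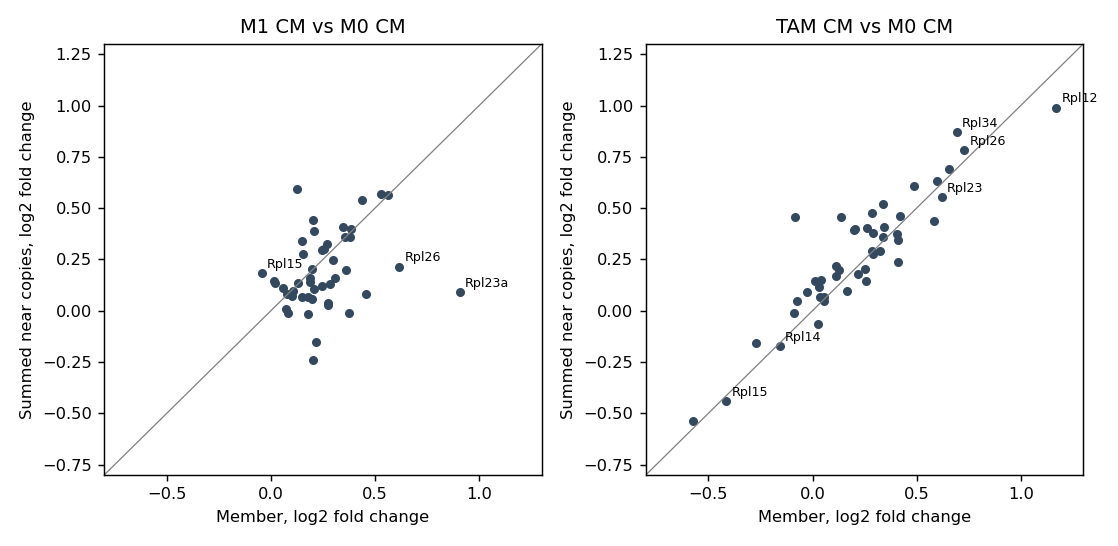
log2 fold change of the summed near copies (vertical axes) against that of the member (horizontal axes) for 46 families, in M1 CM (left) and TAM CM (right) against M0 CM; the line marks equal values. In TAM CM the points ran along the line, among them Rpl15 (-0.41 and -0.44) and Rpl12 (1.17 and 0.99), and in M1 CM Rpl23a and Rpl26 lay below it.

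The 4 members that were not tested had few counts. Over all 12 libraries Rpl3l, a paralog known from muscle, had 6 counts, Rpl10l, known from testis, 4 and Rpl39l 0. Rpl24 had 93, with 614 on its near copies. The paralog Rps27rt, at 11.7 ± 0.216 CPM in M0 CM, was tested and not called against M0 CM in any medium.

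Between the other 3 media the members differed in both directions. In TAM CM against M1 CM 22 were higher and 30 lower, beside 32.8% and 34.4% of all genes, a share near the background. Rpl22l1 had the lowest value, at a log2 difference of -1.27 (adjusted p = 0.000758), with Rps28 at -0.80 and Rpl4 at -0.71, and Rpl12 (0.92) and Rpl7l1 (0.91) the highest. Without M1 CM replicate 2 the counts were 26 and 28, Rpl22l1 was at -0.99 and Rps28 at -0.65, both called. In TAM CM against M2 CM 33 were higher and 15 lower, beside 34.3% and 34.1%, with Rpl4 at -0.67 and Rpl35 at 0.59. In M2 CM against M1 CM 8 were higher and 38 lower, beside 27.8% and 28.4% of all genes. Rps27l (0.54), Rpl7l1 (0.46) and Rpl29 (0.42) were the highest there, and Rpl22l1 (-0.82) and Rps20 (-0.50) the lowest among called members. Without M1 CM replicate 2 these values were -0.55 and -0.42, both called, and in a fit of only the 2 groups Rpl22l1 was not called (adjusted p = 0.0659). Without M1 CM replicate 2 that count was 8 and 32, and without M2 CM replicate 3 it was 8 and 27.

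Other genes of the ribosome and of the TOP class were read beside the members. Rack1, a scaffold on the small subunit, rose from 1145 ± 11.9 CPM in M0 CM to 1480 ± 42.7 in M1 CM, 1255 ± 14.9 with M2 CM and 1522 ± 60.9 in TAM CM. Fau, whose product also joins the small subunit, was higher in M1 CM (0.30, adjusted p = 0.0023), and at 0.21 without M1 CM replicate 2. It was not called in M2 CM (0.06, adjusted p = 0.54) or TAM CM (-0.05, adjusted p = 0.492). Of the 3 further ribosome genes listed, 2 were higher and 0 lower in M1 CM and in M2 CM. In TAM CM 1 was higher and 1 lower. Of 17 translation factors and other genes with TOP mRNAs, 12 were higher and 1 lower in M1 CM, 15 and 0 with M2 CM, and 8 and 4 in TAM CM, with medians of 0.12, 0.19 and 0.04. The shares over all genes tested, higher and lower, were 27.7% and 25.6%, 21.0% and 18.5%, and 35.1% and 34.9%. In TAM CM the poly(A)-binding protein gene Pabpc1 (0.57) and Tpt1 (0.55) rose, and Eef2, the translocation factor, fell from 4562 ± 55.8 to 3745 ± 112 CPM (-0.28), as did Eif4b (-0.26) and Hnrnpa1 (-0.51).

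Genes that control mTORC1 and TOP translation were called in both directions. Of 21 such genes 8 rose and 6 fell in M1 CM, 8 and 7 did with M2 CM, and 9 and 9 in TAM CM. The shares of all genes were 27.7% higher and 25.6% lower, 21.0% and 18.5%, and 35.1% and 34.9%, in the same order of media, near the list's shares in TAM CM. Sesn2, a leucine sensor that restrains mTORC1, was at 46.0, 50.4 and 47.2 CPM in M0 CM and 303, 301 and 318 CPM in TAM CM (log2 2.68, SE 0.05, adjusted p = 6.83e-35). Eif4ebp1, a translation repressor that mTORC1 inactivates, was at 132, 141 and 126 CPM in M0 CM and 531, 488 and 500 CPM in TAM CM (log2 1.93, SE 0.04). The TAM CM and M0 CM libraries were far apart for both genes. Rheb, the activator of mTORC1, rose by 1.40 in TAM CM, and the mTORC1 inhibitor Ddit4 by 1.67. Sesn1 and Sesn3 fell in TAM CM by 1.89 and 1.79. Deptor, an inhibitor bound to mTOR, fell in M1 CM from 80.6 ± 2.58 to 29.8 ± 1.93 CPM (log2 -1.43). Mtor itself was not called in any of the 3 media, and Larp1, which binds TOP mRNAs, rose by 0.30, 0.26 and 0.36 in M1, M2 and TAM CM.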

How the data were processed

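The deposited table holds unscaled counts of 12 libraries by Ensembl gene, with no scaling by the authors that the file header or labels record. RNA was extracted with Trizol and mRNA libraries followed a standard Illumina protocol, per the labels' protocols. HISAT2 2.0 and build mm10 are named, per the submitters' processing notes. Counter, annotation release and strandedness: not given in the sources used here. Reads of overlapping or antisense genes therefore cannot be told apart. Libraries were grouped by title. GENCODE M21 (GRCm38) gave symbols and coordinates for 55227 of 55487 genes.

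Counts were fitted in R 4.3.3 with edgeR 4.0.16 (filterByExpr, TMM, robust glmQLFit) with a mean for each of the 4 groups over 12 libraries, and 6 comparisons were tested with glmQLFTest and Benjamini-Hochberg adjustment over 14509 genes at 0.05. The biological coefficient of variation was 3.65%. Pairs of libraries within a group were neither identical nor equal within sampling noise (chi-square over degrees of freedom 1.98 to 4.97). Each SE was taken from the fold change and its F statistic. Near copies were found with BLAST 2.17.0. The edgeR step alone was tested on simulated counts, for M1 CM against M0 CM.

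Genes named are the paralogs, the 6 largest called rises and falls against M0 CM (3 in other comparisons), members called at 1.5-fold or more, the 3 highest and lowest per kilobase, 4 role groups, and up to 4 genes of each other list. Other genes that describe a list's range or a pair were named after their values were seen. Some genes that the rule names are not reported here. The members, lists and rules were chosen with earlier results of these data known. Alternatives were DESeq2 1.42.0, other scalings and filters, fits of only 2 groups, a replicate block, and each library left out in turn. Figures were drawn with matplotlib 3.10.9.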

Additional observations from a re-analysis of the deposited data

How the results depend on the processing

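In each of the 6 comparisons the direction with more called members stayed the same under 9 other settings and with each library of its 2 groups left out, and no named gene that was called changed sign. Of the values of named genes under all alternatives, 4327 stayed on the same side of the threshold, 107 lost and 66 gained a call. Members lower in TAM CM against M0 CM numbered 12 with library sizes alone and 11 in a fit of only the 2 groups, in place of 7. Members lower in M2 CM against M1 CM numbered 25 in a fit of only the 2 groups, in place of 38. The cause was not tested. With near copies added, the members' share of library counts was 5.14%, 5.74%, 5.45% and 5.68% for M0, M1, M2 and TAM CM, higher by construction. With library sizes alone, the median of all genes moved to -0.06, -0.06 and -0.10 in M1, M2 and TAM CM against M0 CM. TOP genes lower then numbered 3, 1 and 8, and mTORC1 genes higher in M2 CM 5, as under DESeq2. Of 3 further ribosome genes, Rack1 and Fau among them, 1 was higher in M2 CM under DESeq2, DESeq2 size factors, library sizes alone, no filter and a filter of 1 CPM, in place of 2. Leaving out 1 library gave 58 to 68 members higher and 1 to 2 lower in M1 CM, 34 to 49 higher with M2 CM, and 45 to 48 higher and 6 to 7 lower in TAM CM. It gave 1 to 2 of the further ribosome genes and 5 to 7 mTORC1 genes higher in M2 CM. Same-numbered libraries of different media share only a number: correlations of their deviations ran from -0.03 to 0.05 over 18 pairs, and from -0.05 to 0.05 over 36 other pairs. With a replicate block, 71 members were higher and 2 lower in M1 CM, 47 and 0 with M2 CM, and 47 and 8 in TAM CM, where Rps28 gained a call (-0.28, adjusted p = 0.0487). At this depth 1 CPM is about 20 counts, so the 4 untested members and Rpl36al are limited by counting error.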

Other observations

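Chaperones that escort single ribosomal proteins to the assembling ribosome were listed beside the members. Of 8 such genes 7 were tested, without Pdcd2, and against M0 CM 3 rose and 2 fell in M1 CM, 6 and 0 did with M2 CM, and 6 and 1 did in TAM CM. Their median log2 fold changes were 0.01, 0.26 and 0.30, beside 0.01, -0.003 and 0.001 over all genes. Over all genes the shares higher and lower were 27.7% and 25.6%, 21.0% and 18.5%, and 35.1% and 34.9% in that order. In M1 CM the chaperone median was thus close to that of all genes. Ltv1, an assembly factor of the small subunit, went from 43.9 ± 0.226 CPM in M0 CM to 49.9 ± 1.24 in M1 CM, 52.5 ± 1.08 with M2 CM and 66.8 ± 1.72 in TAM CM (SD, n = 3). Grwd1, the chaperone of Rpl3, was lower in M1 CM (-0.16) and higher in M2 CM (0.39) and TAM CM (0.30), and Rpl3 was higher in all 3 media (0.56, 0.15 and 0.32). Heatr3, which imports Rpl5 and Rpl11 into the nucleus, was at 118, 119 and 116 CPM in M0 CM, 91.7, 90.8 and 91.6 CPM in M1 CM, 131, 133 and 126 CPM with M2 CM, and 85.3, 84.8 and 91.9 CPM in TAM CM. It was lower than in M0 CM in M1 CM (-0.36, edgeR adjusted p = 2.26e-11) and TAM CM (-0.43, adjusted p = 7.14e-14) and higher in M2 CM (0.14, adjusted p = 0.00184), a call lost with library sizes alone (adjusted p = 0.0566). Tsr2, the chaperone of Rps26, was higher in M2 CM (0.29) and TAM CM (0.43), where Rps26 rose from 353 ± 5.43 to 468 ± 19.9 CPM. Rps26 held 56.73% of its family's counts, so its level is not fully separated from that of its near copies.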
